A study of Ambystoma mexicanum with 8 samples.

Results

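The PTX3-high connective tissue cells are 397 of the 33860 cells with at least 500 detected genes in 8 single-cell RNA libraries of axolotl (Ambystoma mexicanum) limbs. A cell was a member when it met 4 conditions. At least 2% of its unique molecular identifiers (UMIs, each standing for one captured RNA molecule) came from COL1A1, COL1A2, COL3A1, DCN, LUM, OGN and MFAP5, which is called the connective gate here, and under 1% came from the keratins KRT5, KRT12, KRT15 and KRT76. It held at least 5 UMIs of PTX3. It held fewer than 5 UMIs of the cartilage collagens COL2A1, COL11A1 and COL9A1 together. It held fewer than 3 UMIs of RSPO1, PTH1R and MEOX2 together, and fewer than 3 of the tendon genes TNMD, SCX and MKX together. The cells were thus chosen by measured PTX3, and their PTX3 level and their difference from cells without PTX3 are given as descriptions, with no test.

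The study compared limbs at homeostasis (4 libraries, called Intact 1, 3, 4 and 5) with limbs in a state of systemic activation 14 days after an amputation (4 libraries, called Contra 1, 2, 3 and 5). All animals were wild type; the labels do not spell out the word Contra. Limb tissue was dissociated with liberase and DNase. Live cells with a 4C DNA content were sorted by Hoechst, calcein AM and propidium iodide before 10x 3' capture. Every group thus passed the same 4C gate, and whether each sorted cell had replicated its DNA was not tested. The labels do not say whether the libraries came from separate animals, so p-values measure only the spread between libraries.

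PTX3 encodes pentraxin 3, a secreted pattern recognition protein that in mammals is made by stromal and myeloid cells under inflammatory signals. It binds complement components and cross-links the heavy chains of the inter-alpha-inhibitor family on hyaluronan, a step that needs TNFAIP6, so that hyaluronan chains are held in a stable matrix. HAS2 makes hyaluronan, VCAN and ACAN encode proteoglycans that bind it, and HAPLN proteins lock such proteoglycans to it. MGP encodes matrix Gla protein, an inhibitor of calcification, and LUM encodes lumican, a small leucine-rich proteoglycan of collagen fibrils. All of these roles are known from mammals.

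The libraries held 13344968 to 99777499 UMIs in 1614 to 7385 cells. Members numbered 8, 45, 6 and 3 in Intact 1, 3, 4 and 5 and 61, 69, 146 and 59 in Contra 1, 2, 3 and 5. Only 5 libraries held at least 20 members, namely Intact 3 and the 4 Contra libraries, and levels are given as means over these 5 unless all 8 are named. Summed over its 8 members, Intact 1 stood apart by S100P (3299 CPM), GNMT (2296 CPM) and MPEG1 (900 CPM). MPEG1 is on the leukocyte marker list used below. How these UMIs were spread over the 8 cells is not given here. CPM here means UMIs of a gene per 1000000 UMIs summed over the cells of a population in a library. Across all cells, 134 barcode sequences occurred in more than 1 library; 2 members carried such a barcode, and no barcode was shared between members.

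The connective gate held 14096 cells, and 5469 of them carried at least 5 PTX3 UMIs. Most of those were left out by the rule, 5009 of them for RSPO1, PTH1R and MEOX2, 881 for cartilage collagens and 121 for tendon genes, with overlaps. Members accordingly held 12480 of the 515377 PTX3 UMIs of the series, which is 2.42%. Members are compared below with 2 sets of cells from the same gate. The PTX3-negative cells (1770) met the same exclusions and held no PTX3 UMI. The RSPO1 group with PTX3 (4138 of 7417 cells with at least 3 UMIs of RSPO1, PTH1R and MEOX2) held at least 5 PTX3 UMIs. Between members and PTX3-negative cells lay 757 cells with 1 to 4 PTX3 UMIs.

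Members ran from 5 to 333 PTX3 UMIs, with a median of 15. Of the 397, 142 held 5 to 9, 137 held 10 to 29 and 118 held 30 or more. At the edge of the rule, 43 members held exactly 5 PTX3 UMIs at a median of 7621 UMIs in all, and 63 cells with exactly 4 stayed outside at a median of 6205. A further 133 members held 2 UMIs of RSPO1, PTH1R and MEOX2, 27 held 4 cartilage collagen UMIs, and 18 had a connective share under 3%. The median member held 10883 UMIs, against 7674.5 in PTX3-negative cells and 16979 in the RSPO1 group with PTX3. At an equal 4000 UMIs, members had a median of 1294 detected genes, PTX3-negative cells 1359 and RSPO1 group cells with PTX3 1825.

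PTX3 UMIs also occurred outside connective tissue. Of the epidermal gate cells, 3.16% held at least 5 PTX3 UMIs at a median depth of 4598 UMIs, against 13.6% of connective cells after the exclusions at a median of 7975. Read at an equal 4000 UMIs, where 3 PTX3 UMIs were asked for, the shares were 4.89% and 13.4%. By library, the epidermal share with at least 5 PTX3 UMIs, before thinning, was 8.58% in Intact 3 and 9.85% in Contra 5 and lay between 0.0949% and 1.76% in the other libraries. Whether these UMIs came from free RNA, from doublets or from the cells themselves was not tested, nor was their part in the membership of cells with few PTX3 UMIs.

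The 4 marker genes given for these cells were all present, at levels that overlapped with other connective cells to different degrees. PTX3 (AMEX60DD001838) stood at 4009 CPM in Intact 3 and at 2836, 3293, 2038 and 3518 CPM in Contra 1, 2, 3 and 5. Its mean of 3139 ± 746 CPM (SD, n = 5 libraries) lay below the 5741 ± 487 CPM of the RSPO1 group with PTX3, which was also chosen by PTX3. MGP was 4771 CPM in Intact 3 and 6970, 4910, 4717 and 7815 CPM in the Contra libraries, and no library reached into the PTX3-negative range of 2313 to 2831 CPM. VCAN was 496 CPM in Intact 3 and 342, 473, 519 and 685 CPM in the Contra libraries, above the 143 to 187 CPM of PTX3-negative cells. VCAN was nevertheless lower in every library than in the RSPO1 group with PTX3, whose mean was 1468 ± 258 CPM. LUM, which was part of the gate, was 6139 ± 588 CPM in members, 4963 ± 420 CPM in PTX3-negative cells and 6025 ± 215 CPM in the RSPO1 group with PTX3. MGP and VCAN thus separated members from PTX3-negative cells in all 5 libraries, and LUM did so least, by a median of 0.30 on the log2 scale. The share of all genes separated in this way was not counted.

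COL1A1, the main fibril collagen of connective tissue, stood at 23964 CPM in members and 22697 CPM in PTX3-negative cells, and DCN at 3401 and 3775 CPM, both of which the gate used. The cartilage collagens were capped by the rule, so their low levels are no finding: COL9A1 was at 0, COL2A1 at 14.2 CPM and COL11A1 at 76.0 CPM. Of the cartilage genes the rule did not use, SOX9, the cartilage transcription factor, stood at 2.3 CPM and ACAN at 179 CPM, and pooled over all members the 5-gene list summed to 258 CPM against 166 CPM in PTX3-negative cells. At least 1 MGP UMI was found in 96.5% of members, 84.5% of PTX3-negative cells and 20.9% of epidermal gate cells. With each cell thinned to 2000 UMIs these shares were 89.3%, 75.5% and 11.3%. At least 1 VCAN UMI was found in 80.1%, 49.5% and 9.22% of the same 3 sets, and in 48.3%, 23.1% and 4.51% after thinning.

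**Figure D1:**
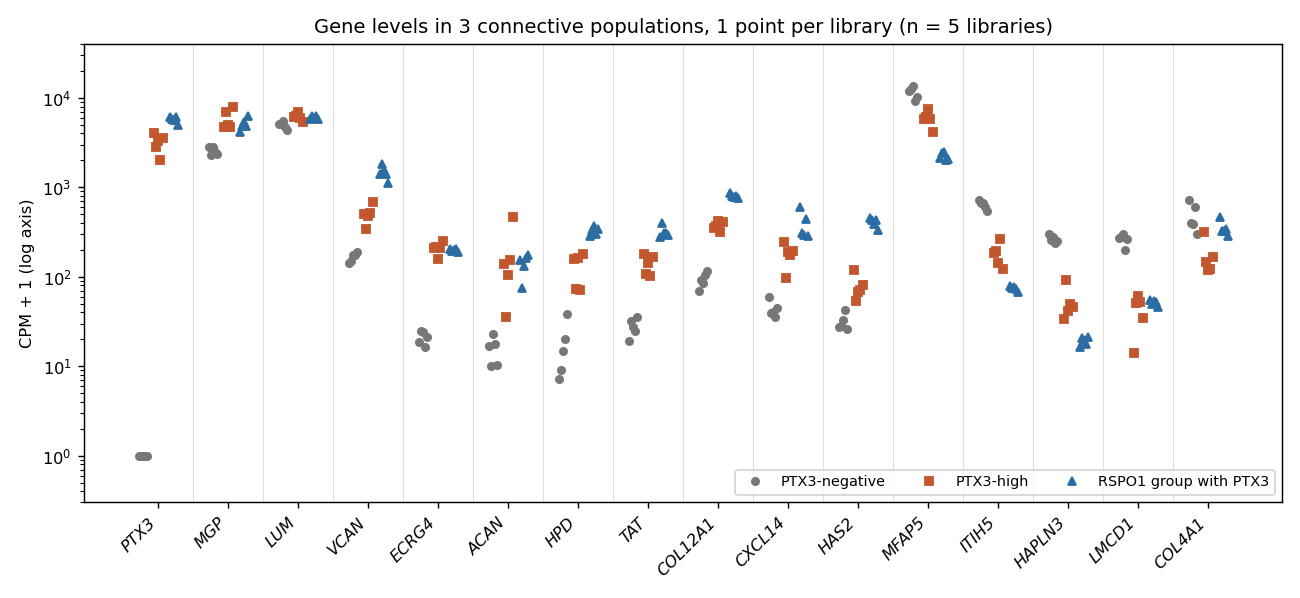
Levels of 16 genes, in CPM + 1 on a log axis, for PTX3-negative cells, PTX3-high cells and RSPO1 group cells with PTX3; each point is 1 of the 5 libraries with at least 20 PTX3-high cells. MGP, VCAN, ECRG4 and HPD lie above the PTX3-negative points in all 5 libraries, and MFAP5, ITIH5 and HAPLN3 lie below them.

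Against PTX3-negative cells, a gene was counted as higher or lower when it reached 50 CPM in one of the populations, differed at least 2-fold in the median library and differed the same way in all 5 libraries. Ratios carry a pseudocount of 5 CPM, which understates the difference of low genes. Of 6872 genes measured, 52 were higher in members (0.757%) and 95 were lower (1.38%), with a median log2 ratio of −0.20 over all genes. These are counts of a description, since both sets of cells were cut on PTX3.

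ECRG4, which encodes a secreted peptide precursor, had the largest ratio among the genes with a symbol that were higher in members. It was 206 CPM in Intact 3 and 212, 158, 209 and 248 CPM in the Contra libraries, against 15.4 to 23.8 CPM in PTX3-negative cells. The median log2 ratio was 3.23, and the 2 sets of libraries did not overlap. ECRG4 was named for its large ratio, and the share of all genes without overlap was not counted. At least 1 ECRG4 UMI was found in 59.2% of members, in 10.0% of PTX3-negative cells and in 14.5% of epidermal gate cells, and thinned to 2000 UMIs in 26.1%, 3.44% and 6.69%. ACAN, the cartilage proteoglycan aggrecan, was 137 CPM in Intact 3 and 34.6, 103, 154 and 466 CPM in Contra 1, 2, 3 and 5, against 9.0 to 21.8 CPM in PTX3-negative cells. Its level varied over 10-fold between libraries and was carried by few cells, with 78.1% of its UMIs in the top 10% of members. The 60 members with at least 3 ACAN UMIs came from 7 libraries and held at least 3 ECRG4 UMIs in 48.3% of cases, against 22.8% of the other members.

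Other genes higher in members encode secreted signals and their inhibitors. CXCL14, a chemokine, stood at 179 CPM in members, 42.8 CPM in PTX3-negative cells and 385 CPM in the RSPO1 group with PTX3. KAZALD1, which holds an insulin-like growth factor binding domain and sums 5 annotated IDs, stood at 88.5, 13.3 and 227 CPM in the same order. CCBE1, a secreted factor of lymphatic growth in mammals, stood at 80.1, 16.0 and 182 CPM. RASL11B, a small GTPase of the Ras family, stood at 115, 21.6 and 91.0 CPM, and MYL9, a myosin light chain, at 75.4, 10.1 and 96.3 CPM. CXCL14, KAZALD1 and CCBE1 lay between PTX3-negative cells and the RSPO1 group. Of the 30 measured genes of the ligand list, 5 were higher, among them CXCL14, CHRDL1, IGFBP3 and SFRP1, and 1 was lower (SFRP4, a secreted Wnt inhibitor, at 8.0 against 55.5 CPM), with a median log2 ratio of 0.26.

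The genes with the largest ratios also included 4 metabolic enzymes, HPD, TAT, QDPR and RDH16. HPD, which acts in tyrosine breakdown, was 157 CPM in Intact 3 and 72.0, 159, 69.8 and 177 CPM in the Contra libraries, against 6.2 to 37.6 CPM in PTX3-negative cells. TAT, the aminotransferase that opens the same route, stood at 138 ± 33.5 CPM in members against 26.7 ± 6.3 CPM. RDH16, a retinol dehydrogenase, stood at 123 against 32 CPM, and QDPR, which recycles tetrahydrobiopterin, at 282 against 75.5 CPM. UCP2, a mitochondrial carrier whose value sums 4 annotated IDs, stood at 137 against 25.6 CPM. Each of these was higher again in the RSPO1 group with PTX3, where HPD reached 323 ± 34.0 CPM and TAT 316 CPM.

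Genes of the hyaluronan matrix were not uniformly higher. Of 10 measured genes of that list, VCAN was higher, HAPLN3 and ITIH5 were lower and 7 did not pass the rule, with a median log2 ratio of −0.54. ACAN, whose product also binds hyaluronan, was counted with the cartilage genes instead and was higher in members. HAS2, the hyaluronan synthase, was 118 CPM in Intact 3 and 52.6, 66.0, 70.4 and 79.9 CPM in the Contra libraries, against 25.1 to 41.5 CPM in PTX3-negative cells, a median log2 ratio of 0.93 that fell short of 2-fold. Its level in the RSPO1 group with PTX3 was 408 ± 49.0 CPM, so members sat nearer to PTX3-negative cells. TNFAIP6, which encodes the enzyme that moves heavy chains onto hyaluronan, stood at 390 ± 56.6 CPM against 201 ± 29.8 CPM in PTX3-negative cells and 540 ± 19.3 CPM in the RSPO1 group with PTX3. ITIH5, a heavy chain of the inter-alpha-inhibitor family, was 183 CPM in Intact 3 and 194, 143, 262 and 120 CPM in the Contra libraries, against 546 to 723 CPM in PTX3-negative cells. HAPLN3, a link protein, was 32.7 CPM in Intact 3 and 91.4, 40.2, 49.0 and 44.4 CPM in the Contra libraries, against 238 to 296 CPM. Neither ITIH5 nor HAPLN3 overlapped between the sets of libraries. Both were among the genes named for the largest ratios, and the share of all genes without overlap was not counted. Pooled over the cells of all 8 libraries, the list summed to 1574 CPM in members and 1760 CPM in PTX3-negative cells.

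Among complement and humoral recognition genes, 2 of 9 measured genes were higher (CLU at 411 against 138 CPM and C2 at 55.7 against 9.7 CPM), none was lower, and the median log2 ratio was 1.04. CLU encodes clusterin, a secreted chaperone that also inhibits complement lysis, and C2 encodes a complement protease. Of 20 measured inflammatory genes, PTGES, which makes prostaglandin E2, was higher (86.8 against 30.2 CPM) and none was lower, with a median of −0.02. None of 12 measured genes of mineralization control passed in either direction; MGP missed by its median log2 ratio of 0.91. None of 10 antigen presentation genes and none of 14 immediate early genes passed, with medians of 0.15 and −0.01.

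Collagens and matrix proteins differed in both directions. COL12A1, a collagen that sits on fibril surfaces, stood at 370 ± 40.5 CPM in members, 92.4 ± 17.8 CPM in PTX3-negative cells and 802 ± 40.6 CPM in the RSPO1 group with PTX3. COL18A1 was also higher (181 against 51.4 CPM). The basement membrane collagens COL4A1 (173 against 483 CPM) and COL4A2 (175 against 508 CPM) were lower, as was COL5A2 (21.7 against 57.4 CPM), leaving 7 of 12 measured collagens short of the rule. Of 21 other matrix genes, FBLN1, MFAP4 and THBS1 were higher and none was lower; MFAP4, a microfibril protein, stood at 619 against 196 CPM. MFAP5, another microfibril protein and part of the gate, was 5825 CPM in Intact 3 and 6094, 7588, 5841 and 4139 CPM in the Contra libraries, against 9100 to 13527 CPM in PTX3-negative cells and 2225 ± 209 CPM in the RSPO1 group with PTX3. Of 9 measured small leucine-rich proteoglycans, 1 passed, OMD, and it was lower (48.5 against 106 CPM).

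Among 14 measured proteases and inhibitors, ADAMTS1 (249 against 96.0 CPM) and the metalloproteinase inhibitor TIMP1 (538 ± 246 against 152 CPM) were higher. ADAMTS15 (30.0 against 108 CPM) and ADAMTS5 (163 against 387 CPM), proteases that cut aggrecan and versican in mammals, were lower. Of the genes with the largest ratios on the lower side, LMCD1, a LIM domain protein, stood at 41.4 against 261 CPM. PTGS1, a cyclooxygenase, stood at 18.5 against 88.1 CPM. CMKLR1, a chemerin receptor whose value sums 9 annotated IDs, stood at 45.7 against 167 CPM. PLAU, the urokinase protease, stood at 9.7 against 50.5 CPM. COL6A5, a chain of collagen VI, stood at 10.6 against 60.9 CPM, and RAPGEF3, an exchange factor activated by cyclic AMP, at 19.9 against 98.8 CPM. CD34, a surface protein of vessel-associated and other connective cells, stood at 38.0 against 107 CPM and was the 1 of 21 measured receptors that passed.

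Of 24 measured limb transcription factors, EBF2 (81.8 against 173 CPM) and EBF3 (99.8 against 200 CPM) were lower than in PTX3-negative cells. None was higher. Over all 6872 genes measured, 1.38% were lower and 0.757% were higher. OSR1, a factor of limb connective tissue, stood at 320 CPM in members, 189 CPM in PTX3-negative cells and 141 CPM in the RSPO1 group with PTX3. OSR2 stood at 281, 232 and 126 CPM, TWIST1 at 271, 163 and 269 CPM, and PRRX1, a limb mesenchyme factor, at 200, 123 and 518 CPM. OSR1 and OSR2 were thus more than 2-fold higher in members than in the RSPO1 group with PTX3, and PRRX1 was lower.

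Members differed from the RSPO1 group with PTX3 mostly by lower levels. Of 7931 genes measured, 20 were higher in members (0.252%) and 1228 were lower (15.5%), with a median log2 ratio of −0.64 over all genes. The RSPO1 group cells were deeper and held more detected genes at equal depth, and the part of this in the count was not tested. CXCL12, a chemokine, was among those higher in members (294 against 96.5 CPM), as were OSR1, OSR2 and ITIH5 (180 against 73.3 CPM). HAS2, the hyaluronan receptor CD44 (9.3 against 79.5 CPM) and VCAN were among those lower. RSPO1 (50.7 against 1982 CPM), PTH1R (24.6 against 717 CPM) and MEOX2 (23.5 against 489 CPM) were low in members by the rule.

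Inside the RSPO1 group, cells can also be split on PTX3, with no cell in common with the members. Against the 1966 RSPO1 group cells with no PTX3 UMI, those with at least 5 had 153 higher genes (1.86%) and 120 lower genes (1.46%) of 8207 measured, leaving out genes used by the rule. On the same footing members had 51 higher and 93 lower genes against PTX3-negative cells. The 2 lists shared 44 higher genes, which is 86.3% of the members' list and 28.8% of the RSPO1 group's list. They shared 52 lower genes, which is 55.9% and 43.3%. No gene passed in opposite directions. The shared higher genes include ECRG4, ACAN, HPD, COL12A1, COL18A1, CLU, C2, CXCL14 and CCBE1, and the shared lower genes include ITIH5, HAPLN3, ADAMTS15, ADAMTS5, CD34, EBF2 and EBF3. MFAP4, CHRDL1, ADAMTS1 and FBLN1 were among those that passed in members alone, and HAS2 was among those that passed in the RSPO1 group alone; whether these differ between the 2 splits was not tested. Both splits used PTX3 and came from the same libraries, so the overlap is a description.

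**Figure D2:**
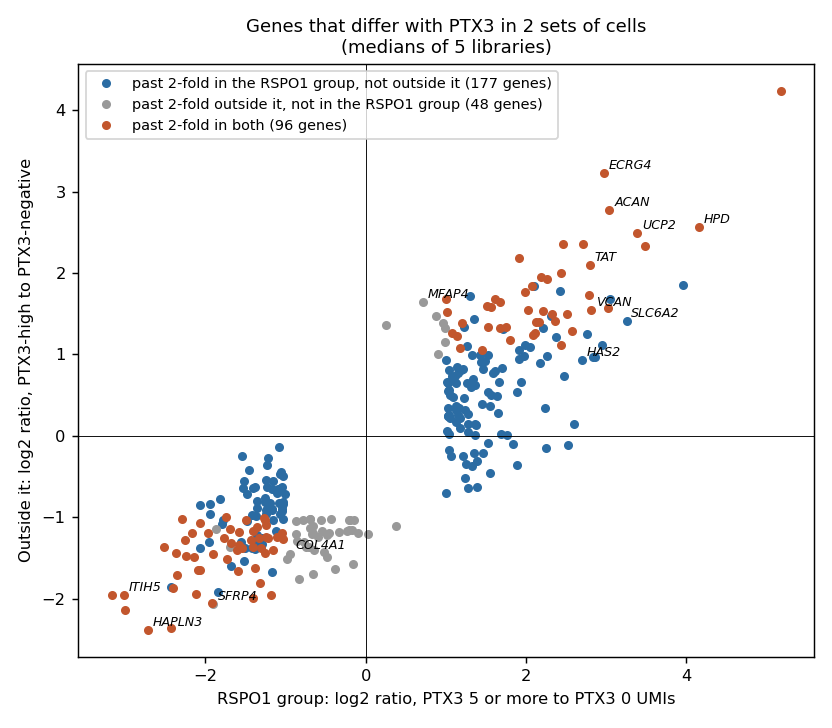
Median log2 ratio over 5 libraries for genes that differed at least 2-fold with PTX3 in either set of cells: RSPO1 group cells with at least 5 PTX3 UMIs over those with none on the horizontal axis, PTX3-high over PTX3-negative cells outside that group on the vertical axis, 1 point a gene, coloured by the set or sets in which it passed. The 44 higher and 52 lower genes that passed in both sets lie at the upper right and lower left.

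The same genes were graded within the members by PTX3. Over cells with 0, 1 to 4, 5 to 9, 10 to 29 and at least 30 PTX3 UMIs, summed over all libraries, ECRG4 stood at 19.3, 48.2, 134, 203 and 276 CPM. HPD stood at 15.4, 16.2, 34.5, 47.9 and 252 CPM and VCAN at 166, 198, 357, 342 and 842 CPM, so both were highest in the cells with most PTX3. MFAP5 went the other way, from 11094, 9459, 8057 and 6196 to 3997 CPM, and HAPLN3 from 258, 195, 93.7 and 39.8 to 29.4 CPM. HAS2 was 33.4, 32.6, 41.5 and 49.3 CPM in the first 4 classes and 127 CPM in the last. RSPO1, limited by the rule, showed no steady order but stood higher in each member class than below 5 PTX3 UMIs (22.9, 31.7, 58.3, 35.8 and 51.2 CPM). MEOX2, limited likewise, was lower in each member class (32.4, 34.1, 26.5, 27.7 and 13.7 CPM).

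Depth moved with these classes. The median cell held 7075 UMIs at 5 to 9 PTX3 UMIs, 10776 at 10 to 29 and 13103 at 30 or more, and the part of depth in the order was not tested. Within Contra 2 alone, from 5 to 9 up to at least 30 PTX3 UMIs (29 and 22 cells), VCAN went from 275 to 719 CPM, HPD from 43.7 to 321 CPM and MFAP5 from 11609 to 4752 CPM. Within Contra 3 (54 and 30 cells) the values were 316 and 1017 CPM for VCAN, 20.7 and 164 CPM for HPD and 7520 and 4084 CPM for MFAP5. MGP went from 3049 to 7319 CPM in Contra 2 and stayed near level in Contra 3, at 4319 and 4446 CPM.

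**Figure D3:**
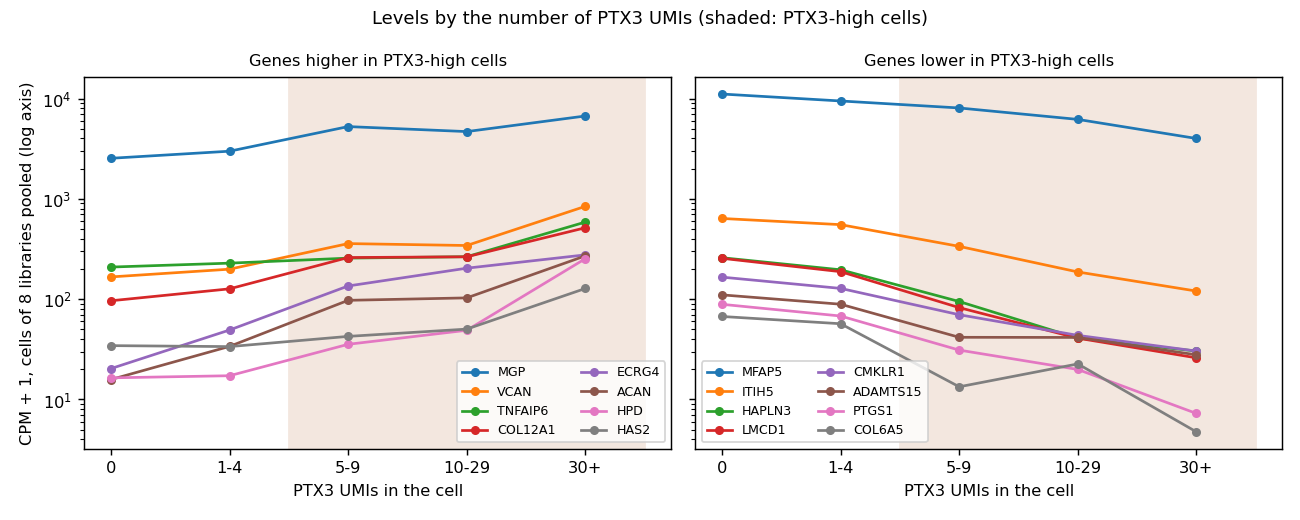
Level of 8 genes higher in PTX3-high cells (left) and 8 genes lower in them (right), in CPM + 1 on a log axis, across 5 classes of connective gate cells by PTX3 UMIs per cell (0, 1 to 4, 5 to 9, 10 to 29, 30 or more), with cells of the 8 libraries pooled and the PTX3-high classes shaded. VCAN, HPD and ECRG4 are highest in the class with most PTX3, and MFAP5 and HAPLN3 are lowest there.

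Members also lay near each other in overall expression. Among 2430 connective cells after the exclusions, thinned to 2000 UMIs and compared without the genes of the rule, 14.7% were members. Of a member's 20 nearest cells, 48.7% were members on average, against 5.42% for PTX3-negative cells and 10.8% for cells with 1 to 4 PTX3 UMIs. The share was 28.7% for members with 5 to 9 PTX3 UMIs, 45.5% for those with 10 to 29 and 71.5% for those with 30 or more. On average 35.5% of a member's neighbours came from its own library.

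Markers of other cell types were present in many members. No doublet caller was run; 244 members (61.5%) held at least 3 UMIs of erythroid, leukocyte, endothelial, Schwann or muscle markers, among them 110 with erythroid and 90 with leukocyte markers. Summed erythroid markers lay between 15.2 and 381 CPM in members of 7 libraries and at 12312 CPM in Contra 5, where PTX3-negative cells held 11197 CPM; ALAS2, HBA1 and HBE1 were at 0. Summed leukocyte markers lay between 36.6 and 1034 CPM over the 8 libraries and were highest in Intact 1. In each of the 5 libraries with at least 20 members, summed leukocyte and summed mural markers were higher in members than in PTX3-negative cells. Leukocyte markers stood at 99.8 to 720 against 77.1 to 245 CPM. Mural markers stood at 175 to 445 against 147 to 201 CPM. Of the leukocyte list, only CD74 and MPEG1 reached 10 CPM. Pooled over all libraries, that list summed to 3583 CPM in epidermal gate cells, 288 CPM in members and 147 CPM in PTX3-negative cells. From which cells these RNAs came, and their part in the gene differences given above, was not tested. The Schwann cell gene SOX10 and the muscle stem cell genes PAX7 and MYF5 were at 0. Of the 7 mural genes, only ACTA2 and NOTCH3 reached 10 CPM in members or PTX3-negative cells. Neither passed the 2-fold rule, and their median log2 ratio was 0.20. ACTA2 was 307 ± 97 CPM in members, where the whole mural list summed to 351 CPM pooled over all libraries, and DES and KCNJ8 were at 0. Removing the cells with such markers is among the alternatives given with the processing, and the part of these RNAs in single genes was not tested.

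All cells were sorted at 4C, and cell cycle genes differed widely in level. Of the 55 G2/M genes found, 29 reached 10 CPM in members or PTX3-negative cells, as did 19 of 26 DNA replication genes; pooled over all libraries the G2/M list summed to 2327 CPM in members and 2407 CPM in PTX3-negative cells, and the replication list to 931 and 832 CPM. At 2000 UMIs, 67.1% of 356 members reached 3 UMIs over the 55 G2/M genes found, but 21.9% did so without TUBB4B, a tubulin gene at 1329 CPM. JPT1 stood at 279 CPM, the chromatin protein genes HMGB2 at 157 CPM and CBX5 at 88.7 CPM, the replication helicase subunit MCM7 at 57.1 CPM, TOP2A at 36.3 CPM and MKI67 at 2.7 CPM, and CDK1, CCNB1, NEK2, CDCA3 and ANP32E were at 0. None of 29 measured G2/M genes passed the rule against PTX3-negative cells, with a median log2 ratio of −0.12. By library, the share with 3 such UMIs was 65.9% in Intact 3 and 71.2%, 66.1%, 63.5% and 75.0% in Contra 1, 2, 3 and 5, so Intact 3 lay inside the Contra range (mean 69.0% ± 5.14, n = 4; two-sided exact permutation test, p = 0.8, where 1 against 4 libraries allow no p below 0.2).

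The first comparison between conditions was the share of connective gate cells that were members. It was 3.35%, 1.93%, 1.37% and 1.44% in Intact 1, 3, 4 and 5 and 2.57%, 2.49%, 3.28% and 4.62% in Contra 1, 2, 3 and 5. Intact 1 lay within the Contra range, and the other Intact libraries lay below it. The means were 2.02% ± 0.917 (SD, n = 4) and 3.24% ± 0.984 (n = 4), a difference of 1.22 percentage points (two-sided exact permutation test, p = 0.143, or 0.429 adjusted over 6 tests; 0.0286 is the smallest p that 4 against 4 libraries allow). The difference was 0.171 percentage points without cells holding markers of other classes (exact permutation test, p = 0.886), 0.397 with a minimum of 10 PTX3 UMIs (p = 0.429) and 0.757 without Contra 5 (p = 0.229). Within libraries numbered 1 and 3 the means were 2.64% and 2.92%, and within the other numbers 1.41% and 3.56%, where the smallest possible p is 0.333.

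The share was also read at equal depth. The median member held 10554, 13318, 10044 and 2120 UMIs in Intact 1, 3, 4 and 5 and 10883, 9860, 11969 and 5191 UMIs in Contra 1, 2, 3 and 5 (exact permutation test of the medians, p = 0.857). With each cell thinned to 4000 UMIs and at least 3 PTX3 UMIs asked for, the share was 3.21%, 1.99%, 1.05% and 0.617% in the Intact libraries and 2.15%, 1.78%, 2.52% and 2.57% in the Contra libraries. The difference was then 0.540 percentage points (exact permutation test, p = 0.371, adjusted 0.743). This reading also dropped the 7 Intact and 70 Contra members below 4000 UMIs. The difference was 1.43 percentage points when 2 PTX3 UMIs of 2000 were asked for (exact permutation test, p = 0.0286). With the whole rule read on 4000 UMIs it was 3.41 percentage points (exact permutation test, p = 0.0571). That last reading also thinned the genes of the exclusions, and most cells it counted were not members. Of the 186 Intact and 798 Contra cells it selected, 49 and 219 were members. The readings at equal depth thus differed among themselves. Of connective cells after the exclusions, members were 13.7% of Intact and 14.2% of Contra cells on average (exact permutation test, p = 0.971).

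As a share of all cells, members were 0.500%, 1.09%, 0.188% and 0.151% in the Intact libraries and 1.31%, 1.11%, 1.99% and 1.24% in the Contra libraries, with no overlap. The means were 0.481% ± 0.432 and 1.41% ± 0.394 (n = 4 each), and the exact permutation p of 0.0286 was the smallest possible and 0.171 after adjustment over 6 tests. Leaving out any single Contra library gave p = 0.0571 by the exact permutation test. This share moves with how many cells of each library were in the connective gate, which was 10.5% to 56.3% in Intact and 26.8% to 60.8% in Contra libraries.

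**Figure D4:**
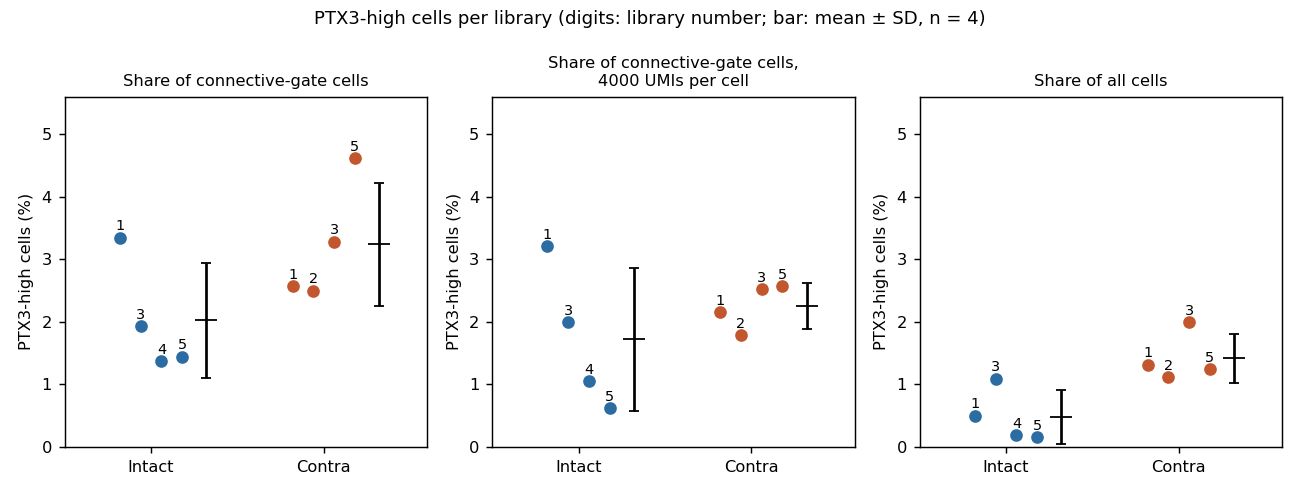
PTX3-high cells in each library as a percentage of connective gate cells, of connective gate cells thinned to 4000 UMIs, and of all cells; points are libraries with their numbers, and bars are means ± SD of the 4 Intact and 4 Contra libraries. Intact and Contra libraries overlap in the measures of connective gate cells and do not overlap in the share of all cells.

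PTX3 itself did not differ detectably between conditions in the whole connective gate, where most cells with at least 5 PTX3 UMIs belonged to the RSPO1 group. Its level was 3526, 2450, 1832 and 1893 CPM in Intact 1, 3, 4 and 5 and 2192, 2441, 2438 and 2001 CPM in Contra 1, 2, 3 and 5. Intact 1 was the highest library and the Contra values lay inside the Intact range. The log2 means were 11.19 ± 0.44 and 11.14 ± 0.14 (n = 4 each; exact permutation test, p = 0.857).

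Genes were then tested within members. The 4 Contra libraries were set against Intact 3, the only Intact library with at least 20 members, so the spread of Intact 3 was taken to be that of the Contra libraries. No gene of 6898 passed an adjusted p of 0.05 in edgeR's quasi-likelihood test with Benjamini-Hochberg adjustment (0.0%), 348 had an unadjusted p under 0.05, and DESeq2 also called 0. With all 8 libraries, edgeR called 0 of 4494 genes (0.0%), with 241 at an unadjusted p under 0.05. A term for libraries numbered 1 and 3 led to 1 call among the 6898, an ID annotated CHK1 (AMEX60DD047680; log2 fold change −3.30, edgeR adjusted p = 0.0115), which held 55 UMIs in Intact 3, 0 in the other Intact libraries and 7 to 25 in the Contra libraries. The values below are those of genes that failed the test without that term.

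COL4A1 was 486, 316, 311 and 395 CPM in Intact 1, 3, 4 and 5 and 144, 119, 121 and 166 CPM in Contra 1, 2, 3 and 5. All 4 Intact libraries lay above all 4 Contra libraries, but Intact 1, 4 and 5 rested on 47, 17 and 9 UMIs. COL4A1 was named for its small p, and the share of all genes separated in this way was not counted. The log2 fold change was −1.26 with a standard error of 0.26 against Intact 3 (edgeR adjusted p = 0.942) and −1.35 over all 8 libraries (edgeR adjusted p = 0.336). PTX3-negative cells held 303 to 604 CPM of COL4A1 in Contra and 317 to 725 CPM in Intact libraries, ranges that overlapped. Their log2 fold change against Intact 3 had the same sign, at −0.85. The difference between the 2 populations' changes did not pass either (edgeR adjusted p = 0.973).

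AMMECR1 was 1.6 CPM in Intact 3, from 1 UMI, and 20.8, 45.1, 33.7 and 31.1 CPM in the Contra libraries, with a log2 fold change of 4.13 and a standard error of 0.81 (edgeR adjusted p = 0.942). Intact 1, with 8 members, held 6 UMIs of it. PTGS2, the inducible cyclooxygenase, was 421 CPM in Intact 3 and 111, 56.3, 167 and 42.1 CPM in the Contra libraries. In Intact 1, 4 and 5 it was 62.1, 18.3 and 43.9 CPM, within or below the Contra range, so Intact 3 alone was high. LMCD1 was 13.1 CPM in Intact 3 and 49.9, 59.5, 51.4 and 33.3 CPM in the Contra libraries. In Intact 1, 4 and 5 it was 93.1, 36.6 and 0 CPM, from 9, 2 and 0 UMIs, so the Intact libraries lay on both sides of the Contra range. The antisense RNA WEE2-AS1, whose reads cannot be told from those of its partner gene, had a log2 fold change of −1.70 with a standard error of 0.36 (edgeR adjusted p = 0.942). Over the other 7 libraries, without Intact 3, the sign of the change turned for AMMECR1 (−0.33), PTGS2 (1.26), LMCD1 (−0.17) and WEE2-AS1 (0.64).

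The marker genes of these cells did not pass this test. The log2 fold change was −0.52 for PTX3, 0.30 for MGP, −0.07 for LUM, −0.03 for VCAN, −0.26 for TNFAIP6 and −0.88 for HAS2, all with an edgeR adjusted p of 0.94 or more. Over all 8 libraries it was −0.91 for PTX3, −0.29 for MGP, 0.06 for LUM, −1.19 for VCAN, −1.06 for TNFAIP6 and −0.82 for HAS2. The PTX3 change is given without a reading, since each member was chosen by its PTX3 UMIs. Unadjusted edgeR p-values were 0.0282 for VCAN, 0.0105 for TNFAIP6 and 0.0112 for HAS2, and adjusted p-values were 0.91 or more. The sign for MGP and LUM thus turned with the libraries used. VCAN was 693, 496, 3145 and 746 CPM in Intact 1, 3, 4 and 5 against 342 to 685 CPM in Contra, and TNFAIP6 455, 432, 987 and 1974 CPM against 301 to 426 CPM. For VCAN Intact 3 lay inside the Contra range, and for TNFAIP6 all 4 Intact libraries lay above it. For TNFAIP6 the gap was narrow at Intact 3, with 432 CPM against a Contra maximum of 426 CPM. The share of all genes separated in this way was not counted. HAS2 in all 8 libraries was 72.4, 118, 165 and 219 CPM in Intact 1, 3, 4 and 5, against 52.6 to 79.9 CPM in Contra; Intact 1 lay inside the Contra range and the other Intact libraries above it. Intact 4 and 5, with 6 and 3 members, were also the highest in PTX3, at 9893 and 7327 CPM. Of 10 tested genes of the hyaluronan list none passed, and the median log2 fold change was −0.16 against 0.04 over all genes. The 14 tested complement genes (median 0.47) and the 12 tested antigen presentation genes (median 0.88) also held none.

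Immediate early genes, which respond to dissociation among other stimuli, had the lowest median among the lists with at least 10 tested genes. Of 16 tested, none passed after adjustment, 12 were lower at an unadjusted p under 0.05 and the median was −1.13. Their summed level in members was 2658, 7671, 3822 and 4782 CPM in Intact 1, 3, 4 and 5 and 4472, 2678, 5153 and 3294 CPM in Contra 1, 2, 3 and 5. Intact 3 was the highest library and the other Intact libraries lay within or close to the Contra range. In PTX3-negative cells Intact 3 was likewise highest, at 6982 CPM. Over all 8 libraries, none of 12 tested genes had an unadjusted p under 0.05 and the median was −0.27.

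**Figure D5:**
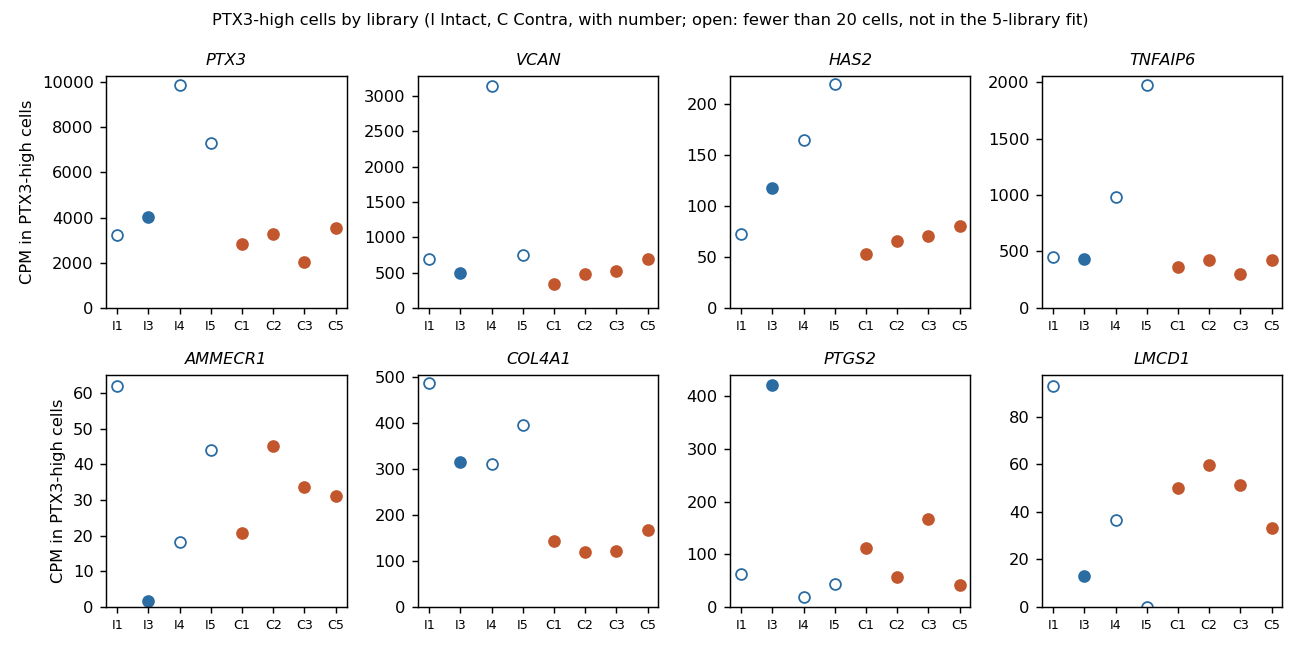
CPM in PTX3-high cells of each library for 8 genes, on linear axes, with Intact (I) and Contra (C) libraries by number and open points for libraries with fewer than 20 PTX3-high cells. COL4A1 is higher in all 4 Intact libraries than in all 4 Contra libraries, and for PTGS2 the Intact 3 point lies above every other library.

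Whether members and PTX3-negative cells changed differently between conditions was tested as an interaction. None of 11848 genes passed in edgeR (0.0%), 577 had an unadjusted p under 0.05 and DESeq2 called 0. The smallest adjusted p was that of an ID annotated as CHK1 (AMEX60DD047680), a log2 difference of −3.84 with an edgeR adjusted p of 0.150. It rested on 55 UMIs in Intact 3 and 7 to 25 UMIs in the Contra libraries. A second ID annotated CHK1 (AMEX60DD035402) had a difference of −2.17 (edgeR adjusted p = 0.839), and reads may be split between such copies. AMMECR1 had a difference of 4.08 (edgeR adjusted p = 0.48). ASPM, a spindle protein of dividing cells, had a difference of −2.78, TREX2, an exonuclease, −3.51 and LMCD1 2.01, each with an edgeR adjusted p of 0.839.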

How the data were processed

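Single-cell 3' RNA libraries of 4C-sorted limb cells were counted and filtered by the authors; the submitters' processing notes name kallisto 0.48.0 and Seurat 4.2.0. The deposited files hold raw UMI counts per gene and cell, and the genome build, annotation and cell filter are not given in the sources used here. Gene names are the symbols within the deposited gene IDs; genes that share a symbol were summed for levels and kept apart in fits. Reads of near-identical copies, or of a gene and its antisense partner, cannot be told apart here. The members and gene lists were chosen with earlier results of these data known.

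Cells with at least 500 genes were kept, and no doublet caller was run. Counts were summed per library and population and given as CPM. Genes named against PTX3-negative cells lead by median log2 ratio (pseudocount 5 CPM) among those past 50 CPM, 2-fold and the same direction in 5 libraries, beside the list genes; genes named between conditions have the smallest p among those with a symbol. Some genes these rules name are not reported here. Single values were compared by two-sided exact permutation over libraries. Summed counts were tested with edgeR's quasi-likelihood test (edgeR 4.0.16, TMM, filterByExpr), with DESeq2 1.42.0 as an alternative. The gene fits were also run on simulated counts, with a dispersion taken from the real fits. The outcome of that run is not given here. Intervals for single shares are not given; counting error is largest in Intact 1, 4 and 5, with 3 to 8 members.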

Additional observations from a re-analysis of the deposited data

Results flagged for a closer look

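CCBE1 in members stood at 127 CPM in Contra 2 and at 58.2, 63.7 and 59.9 CPM in the other Contra libraries, so Contra 2 lay far from the rest of its group. It was the only such gap among 44 groups of 4 libraries examined, and chance gives about 1 in 20.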

How the results depend on the processing

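The difference in the share of connective gate cells kept its direction under all alternatives. For members it ran from 0.171 to 2.15 percentage points. The lowest was without cells holding other-class markers (exact permutation p = 0.886), and the highest within libraries not numbered 1 or 3. With no exclusions, where most cells counted were of the RSPO1 group, it was 3.63, from means of 34.5% and 38.1%. Numbers 1, 3 and 5 are shared by both groups. Deviations of same-numbered libraries correlated at −0.04, 0.63 and 0.31, and 4 of 6 libraries correlated best with their own number. Same-numbered libraries were thus alike for numbers 3 and 5 and not for number 1. The main tests did not take the numbers as pairs, and whether libraries of 1 number share a source was not tested. With the replicate block the difference was 1.25 (exact sign flips, p = 0.5; smallest 0.25). Asking for 2 PTX3 UMIs at 2000 UMIs gave 1.43 (exact permutation p = 0.0286). The share of all cells missed the threshold with a minimum of 3 PTX3 UMIs (1.21, p = 0.0857), with 10 (0.467, p = 0.114, exact permutation) and without any 1 Contra library (0.740 to 1.03; 0.740 to 1.13 leaving out any 1 library). The PTX3 level difference turned positive as a median of single cells, at 3.32 in log2(CPM + 1) (exact permutation p = 0.314). The Intact SD was then 4.28, and the median connective gate cell of Intact 4 and of Intact 5 held 0 PTX3 UMIs. The PTX3 level difference ran from −0.17 to 0.15 leaving out 1 library, being positive without Intact 1 or Contra 5. The UMI difference turned to −2811 at 10 PTX3 UMIs and ran from −1830 to 1903 leaving out 1 library. The G2/M difference was −0.0375 at 4000 UMIs and −8.24 over all 8 libraries. Gene counts of 0 became 65 without a filter on low counts, 1 with numbers 1 and 3 as a term and 3 over all 8 libraries with the replicate block (1 ID of UCP2, AMEX60DD049794, −1.92, edgeR adjusted p = 0.0481; PMT17066, −1.58, 0.0152; and AMEX60DD040542, which has no symbol, 3.52, 0.000319); for the interaction, 11 without the filter and 0 to 2 leaving out 1 library (1 without Contra 1, 2 without Contra 5). The fit without cells of other-class markers was not run, as no Intact library kept 20 members. Leaving out Intact 3 left no Intact library with 20 members; over all 8 libraries without it, AMMECR1 (−0.33), WEE2-AS1 (0.64), PTGS2 (1.26) and LMCD1 (−0.17) changed sign. Causes were not tested. Counts against PTX3-negative cells ran from 52 to 66 higher and 86 to 131 lower. Alternatives over all 8 libraries and those on PTX3-negative cells were chosen after seeing the data.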

Other observations

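The tyrosine route, chosen after its values were seen, was followed past HPD and TAT. HGD, which opens the ring of homogentisate, stood at 230 CPM in members, 70.7 CPM in PTX3-negative cells and 367 CPM in the RSPO1 group with PTX3. GSTZ1, the next enzyme, stood at 117, 32.1 and 155 CPM. FAH, which ends the route, stood at 702, 399 and 732 CPM. All 3 were lowest in PTX3-negative cells, and no test was made.

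The place of members between PTX3-negative cells and the RSPO1 group differed between 2 sets of genes chosen by that difference. For 854 genes higher in the RSPO1 group with PTX3 than in PTX3-negative cells, the median log2 ratio to PTX3-negative cells was −0.40 in members, 1.30 in the RSPO1 group with PTX3 and 1.28 in RSPO1 group cells with no PTX3, and 207 genes lay between the 2 populations in members. For 79 genes lower in the RSPO1 group, it was −1.01 in members, −1.56 in the RSPO1 group with PTX3 and −0.24 in RSPO1 group cells with no PTX3. Of those 79, 67 lay between in members, at a median of 57.2% of the way.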
